A study of Mus musculus with 15 samples.

Results

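The subject is the set of nuclear genes that encode subunits of the respiratory chain, measured in mouse lumbar motor neurons. Members were chosen by symbol: names of the Nduf, Sdh, Uqcr, Cyc1, Cycs, Cox4 to Cox8 and Atp5 series with a mean of at least 1 TPM over the libraries. TPM divides reads by transcript length and gives every library the same sum. Of 36144 symbols in the gene table, 86 fit the naming pattern and 81 reached that level. All 81 passed the filter of the tests, which kept the 15425 genes that reached 1 TPM in 3 or more libraries. The members comprised 35 genes of complex I, 4 of complex II, 9 of complex III, cytochrome c, 15 of complex IV and 17 of the ATP synthase. The lowest symbol inside the limit was Cox7b2, at 6.3 TPM, and the highest outside it was Cox6a2, at 0.9 TPM. The other symbols outside it were Cox6c2, Cox4i2, Cox8b and Cox8c, at 0.7, 0.6, 0.5 and 0.2 TPM.

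The respiratory chain sits in the inner mitochondrial membrane. Complexes I and II pass electrons from NADH and succinate to ubiquinone, complex III hands them to cytochrome c and complex IV to oxygen, and the ATP synthase uses the proton gradient that complexes I, III and IV build. The mitochondrial genome encodes a few core subunits of complexes I, III and IV and of the ATP synthase, while every subunit of complex II and all the others are imported from the cytosol. Motor neurons, with long axons and constant firing, depend heavily on oxidative phosphorylation.

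The 15 libraries held motor neurons of lumbar segments L1 to L3, which were laser-captured after retrograde tracing with cholera toxin subunit B, from mice of the FVB background at postnatal day 6. There were 5 groups of 3 biological replicates, and mice of both sexes were used in equal proportion. All mice carried the human SMN2 and SMNdelta7 transgenes. WT mice were Smn+/+;SMN2;SMNdelta7 littermates given vehicle, and SMA mice were Smn-/-;SMN2;SMNdelta7 given vehicle, a model of spinal muscular atrophy in which the human transgenes are the remaining source of SMN protein. The other groups had the SMA genotype and received SMA+MW150 (5 mg/kg, an inhibitor of the kinase p38 alpha), SMA+Pifithrin-alpha (2.2 mg/kg, an inhibitor of p53) or SMA+SMN-C3 (3 mg/kg, a modifier of SMN2 splicing), by daily intraperitoneal injection from postnatal day 0. Smn was lacking throughout the body and the drugs were given systemically, so an effect within motor neurons and one from other tissues cannot be told apart. How many animals or neurons entered a library is not given in the sources used here. By its title, the series profiled vulnerable motor neurons while p53 signalling was modulated. Below, a level is in TPM or, where named scaled TPM, in TPM divided by a library's median-of-ratios size factor, and a change is a difference of log2(scaled TPM + 1) between group means.

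Smn1 stood at 11.6, 17.7 and 21.9 scaled TPM in the WT libraries and at 0 to 1.26 in the 12 Smn-/- libraries, as labelled. The 6 motor neuron markers (Chat, Slc18a3, Slc5a7, Isl1, Mnx1 and Prph) summed to 2150 to 2885 TPM in 13 libraries, to 1256 in WT 1 and to 980 in SMA+Pifithrin-alpha 3. Prph had the highest level of the 6, and Prph and Slc18a3 were lowest of their group in both libraries. Slc5a7 went the other way, with its highest values of the series, 391 and 355 scaled TPM, in WT 1 and SMA+Pifithrin-alpha 3. Chat, Isl1 and Mnx1 in WT 1 lay between WT 2 and WT 3. The same 2 libraries held the highest share of mitochondrially encoded (mt-) genes, 21.9% and 20.4% of TPM. SMA+Pifithrin-alpha 2 held 12.6%, SMA+SMN-C3 1 held 11.3% and the other 11 libraries held 3.76% to 7.55%. WT 1 and SMA+Pifithrin-alpha 3 stood apart among the respiratory chain genes too, as described after the Cox6b2 results. For each comparison, the count and median over the members are given with and without them.

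Cox6b2 was the only member called between SMA and WT motor neurons, though not in every fit. It encodes the testis isoform of a complex IV subunit that faces the intermembrane space, and Cox6b1 encodes the isoform found in most tissues. Cox6b2 was higher in all 12 Smn-/- libraries than in any WT library, while Cox6b1 was not called between SMA and WT. A Cox6b2 transcript that keeps the first intron was called as well, at the transcript level. Cox6b2 lies on the minus strand of chromosome 7 (GRCm38, chr7:4751792-4753094), and no exon of another annotated gene overlaps it. The intron in question, chr7:4752850-4752952, is 103 bases long, 65% G and C, and lies before the coding sequence. The transcript that keeps it, Cox6b2-203, has the same coding sequence as the leading spliced transcript, Cox6b2-201. The end of the intron is shown since the transcript call turns on whether it is spliced. It runs 5′ to 3′ on the gene's strand, with the last 2 intron bases in capitals.
Cox6b2 first intron acceptor (24 intron and 6 exon bases, chr7:4752844-4752873): ggagccctgcaccccttcctgcAGgaattg
The bases are from GENCODE M21 transcripts, and AG is the usual end of a spliced intron.

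Cox6b2 was at 13.9, 48.1 and 30.1 scaled TPM in WT 1 to 3, and at 98.2, 111.6 and 76.5 in SMA 1 to 3. The 2 groups did not overlap, and WT 1 was the lowest library of the series. The change from WT to SMA was 1.75 with a standard error of 0.34 (limma, adjusted p = 0.0295 over 15425 genes, n = 3 a group). It was the only one of the 81 members called at an adjusted p under 0.05 in this comparison, in which 0.298% of all tested genes were called, 44 higher and 2 lower. The libraries of the treated groups lay between WT and the top of SMA: 110.6, 102 and 66.5 scaled TPM in SMA+MW150, 60.2, 57.8 and 55.9 in SMA+Pifithrin-alpha, and 98, 78.4 and 84.4 in SMA+SMN-C3. Every one of these 9 was above the highest WT value. None of these groups was called against WT by limma: the change was 1.70 for MW150 (adjusted p = 0.0651), 1.06 for Pifithrin-alpha (0.514) and 1.63 for SMN-C3 (0.137). Against SMA, Pifithrin-alpha had a change of -0.69 (limma, adjusted p = 0.437), MW150 one of -0.05 and SMN-C3 one of -0.12.

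The call for Cox6b2 depended on single libraries. Without WT 1 the change was 1.29 (limma, adjusted p = 0.0603), and leaving out WT 3, SMA 1 or SMA 2 gave adjusted p-values of 0.0554, 0.156 and 0.144. Without both libraries of highest mt- share it was 1.3 (adjusted p = 0.0263), and after a correction for base composition 1.49 (0.0233). A share within a library does not depend on the scaling between libraries. Cox6b2 made up 0.73%, 1.54% and 1.34% of the TPM of Cox6b1 and Cox6b2 together in WT 1 to 3, against 3.24% to 4.70% in SMA, 2.97% to 5.59% with MW150, 2.33% to 3.38% with Pifithrin-alpha and 2.54% to 3.68% with SMN-C3. All 12 Smn-/- libraries were again above the 3 WT libraries. Cox6b1 itself was at 1893, 3085 and 2212 scaled TPM in WT and at 2395, 2263 and 2284 in SMA, a change of -0.02 (limma, adjusted p = 0.976).

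The same model was fitted to 40763 transcripts, a step chosen after the data had been seen. Cox6b2-203 was listed at 0 in WT 1, and WT 2 and 3 held 2.97 and 2.79 TPM. It was at 42.7, 30.5 and 32.4 TPM in SMA, 42.2, 37.0 and 21.4 with MW150, 23.8, 19.9 and 10.7 with Pifithrin-alpha and 26.4, 22.0 and 25.4 with SMN-C3. The lowest Smn-/- library was thus above the highest WT library. The change from WT to SMA was 3.72 with a standard error of 0.44 (limma, adjusted p = 0.00102), among 0.191% of transcripts called. It was also called against WT with MW150 (3.55, adjusted p = 0.00284), Pifithrin-alpha (2.99, 0.0169) and SMN-C3 (3.47, 0.0062), where 0.0613%, 0.0662% and 0.0491% of transcripts were called. The call between SMA and WT was kept when any 1 of the 6 libraries was left out, with adjusted p-values of 0.000394 to 0.0145. The calls with MW150 and SMN-C3 were each kept in 5 of 7 alternative fits and that with Pifithrin-alpha in 3 of 7 (adjusted p up to 0.9). The last was also lost without SMA+Pifithrin-alpha 2 (0.11) or SMA+Pifithrin-alpha 3 (0.059). The call between SMA and WT was not made in a fit of the 6 libraries of these 2 groups alone (limma, adjusted p = 0.159). The spliced Cox6b2-201 was at 8.23, 30.1 and 17.6 scaled TPM in WT and at 36, 31.6 and 27.1 in SMA, a difference of 0.89 that was not called (limma, adjusted p = 0.388). The other tested transcripts that splice this intron changed by 0.91 to 2.21, none called (limma, adjusted p = 0.122 to 0.454).

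Of the 9 annotated Cox6b2 transcripts, 1 keeps the first intron, 6 splice it out and 2 hold neither form. The share of the keeping form among those 7 was 0%, 6.80% and 8.70% in WT, 40.8%, 25.8% and 38.5% in SMA, 33.6%, 34.3% and 28.8% with MW150, 33.6%, 34.8% and 30.8% with Pifithrin-alpha and 30.3%, 30.5% and 31.5% with SMN-C3. The group means were 5.17% ± 4.57 in WT, 35.0% ± 8.08 in SMA, 32.2% ± 2.99, 33.1% ± 2.05 and 30.8% ± 0.64 in the treated groups in the same order (SD, n = 3). The 12 Smn-/- libraries spanned 25.8% to 40.8%, and the WT libraries lay below 9%. All 9 treated libraries lay within the range of SMA. The 6 splicing transcripts together were higher in SMA too, at 62.0, 87.8 and 51.7 TPM against 10.8, 40.8 and 29.2 in WT. SMA+Pifithrin-alpha 2 and 3, at 37.2 and 23.9 TPM, were below WT 2. The shares come from the transcript estimates of the submitters' program and not from counts of reads across the junctions, and the depth behind them is not stated.

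**Figure D1:**
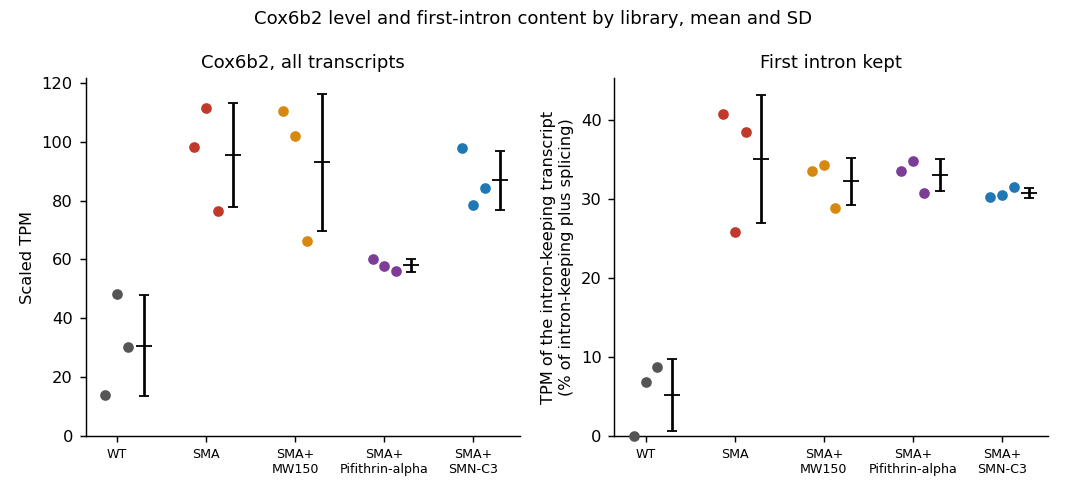
Left, scaled TPM of Cox6b2 in each library of the 5 groups; right, TPM of the transcript that keeps the first intron as a percentage of keeping and splicing transcripts. Points are libraries and bars the mean and SD (n = 3); the 3 WT libraries lie below the 12 others in both panels, at 13.9 to 48.1 scaled TPM and 0% to 8.70%.

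Another 3 transcripts of members were called higher in SMA than in WT, out of 329 tested. Ndufb10-206, a processed transcript of an accessory subunit of complex I, was at 2.38, 4.34 and 7.08 scaled TPM in WT and at 27.3, 19.4 and 23.9 in SMA, with a change of 2.21 (limma, adjusted p = 0.0126). The 9 treated libraries held 12.6 to 27, all above WT. Atp5c1-202, from the gene of the gamma subunit that forms the shaft of the ATP synthase, was at 1.52, 1.34 and 3.70 scaled TPM in WT and at 17.9, 8.33 and 10.4 in SMA, a change of 2.06 (limma, adjusted p = 0.0448). Atp5c1-206 was at 0, 0.65 and 1.70 scaled TPM in WT and at 9.01, 3.92 and 8.79 in SMA, a change of 2.25 (limma, adjusted p = 0.0306). These transcripts were named after their values had been seen, and each was a small part of its gene: at most 4.47% of the TPM of Ndufb10 and 1.94% of that of Atp5c1 in any library. The Atp5c1 calls were lost in 6 and 5 of 7 alternative fits, and the Ndufb10 call in 1 of 7. Leaving out 1 library ended the Ndufb10-206 call without SMA 1 (adjusted p = 0.11) or SMA 3 (0.0537), the Atp5c1-202 call without any library but WT 3 (0.0719 to 0.278) and the Atp5c1-206 call without any but WT 3 and SMA 2 (0.0699 to 0.214).

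All 4 called transcripts carry bases that lie in introns of the leading coding transcript of the gene: 103 in Cox6b2-203, 196 in Ndufb10-206, 635 in Atp5c1-202 and 419 in Atp5c1-206. With all libraries included, this did not extend to such transcripts as a class. Among the 184 member transcripts other than the leading one with at least 30 intron bases, 94 were higher in SMA than in WT and the median change was 0.01. Over all genes, 16656 transcripts of that kind had a median of 0.05. Beside the leading coding transcripts, members' transcripts of that kind made up 19.1% of TPM in WT 1. They made up 7.09% and 7.51% in WT 2 and 3 and 6.87% to 7.32% in SMA. The class was not compared without WT 1. In the treated groups no member transcript was called against SMA, where 0.00245%, 0.00491% and 0.00736% of all transcripts were called with MW150, Pifithrin-alpha and SMN-C3. Against WT, Ndufb10-206 was called with MW150 (limma, adjusted p = 0.0235), Atp5c1-206 with Pifithrin-alpha (0.0407) and Cox6b2-207 with MW150 (0.0134), and each of these was lost when some single libraries were left out.

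Levels within the chain spanned almost 3 orders of magnitude. TPM is per length of transcript, which allows for length between genes but not for the dependence on base composition described below. By mean over the 15 libraries the highest member was Ndufa4 at 4819 TPM, a subunit first assigned to complex I and now placed in complex IV. That mean includes WT 1, which held 9009 scaled TPM of Ndufa4, and SMA+Pifithrin-alpha 3, which held 14814. Atp5g1 was above Ndufa4 in SMA 1 (3473 against 3282), SMA+SMN-C3 2 (5298 against 4650) and each SMA+MW150 library, and below it in the others. In complex I, Ndufb8, an accessory subunit, was highest at 1848 TPM and Ndufs1, the largest iron-sulfur subunit, lowest at 131 TPM. Other catalytic subunits of complex I lay between, with the NADH-binding Ndufv1 at 322 TPM, Ndufs8 at 815 and Ndufs7, which holds the last cluster before ubiquinone, at 1172. In complex II, the iron-sulfur subunit Sdhb was at 785 TPM, the flavoprotein Sdha at 203 and the membrane anchor Sdhc at 181. In complex III the small subunit Uqcr11 reached 2527 TPM, cytochrome c1 (Cyc1) 677, the Rieske protein Uqcrfs1 536 and the core protein Uqcrc2 297. Median levels were 711 TPM in complex I, 335 in complex II, 1314 in complex III, 2126 in complex IV and 1362 in the ATP synthase.

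Isoform pairs of complex IV were unequal in these neurons. Cox6a1, Cox6b1 and Cox7a2, the forms of most tissues, stood at 2453, 2327 and 1503 TPM. Their muscle or testis partners stood far lower: Cox6a2 was below 1 TPM, Cox6b2 at 75.7 TPM and Cox7a1 at 21.5 TPM. Cox4i1 was at 2844 TPM with Cox4i2, the lung form, below 1 TPM, and Cox8a at 2369 TPM with Cox8b below 1 TPM. Cox7b was at 1211 TPM against 6.3 TPM for the testis form Cox7b2, and Cox7a2l, which joins complexes III and IV, was at 215 TPM. The 3 genes of the c ring, which encode the same mature protein, stood at 3614 TPM for Atp5g1, 3549 for Atp5g3 and 195 for Atp5g2. The catalytic beta subunit, Atp5b, was at 2303 TPM and the alpha subunit, Atp5a1, at 1022. In the ATP synthase Atp5s, a coupling factor rather than a structural subunit, was lowest at 48.7 TPM.

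**Figure D2:**
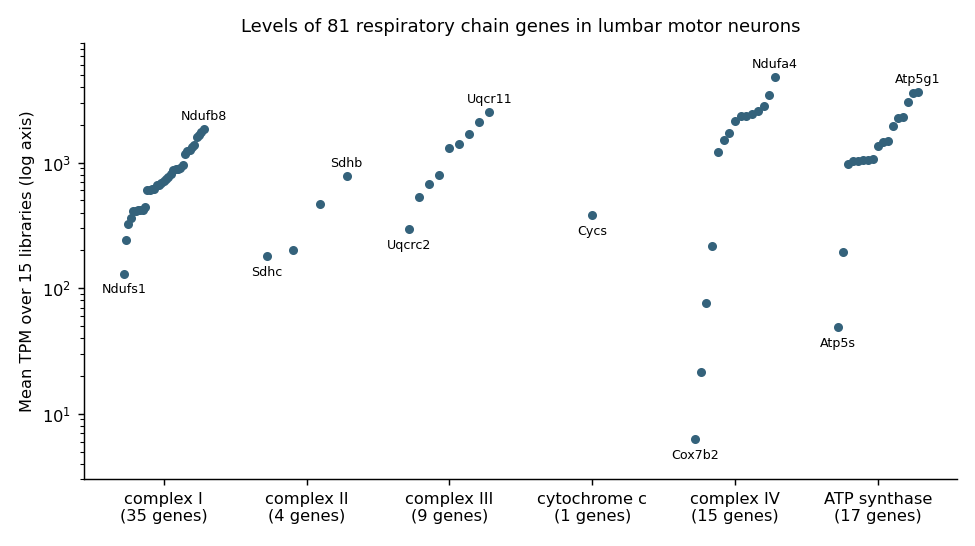
Mean TPM of each of the 81 members over 15 libraries (log axis), by complex, with the lowest and highest gene of each complex named. Ndufa4 was highest at 4819 TPM and Cox7b2 lowest at 6.3 TPM.

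Promoters of members held 3 short motifs more often than promoters at large. The RefSeq promoter table (GRCm38.p6, 250 bases before to 50 after a start site) matched 66 of the 81 members with 71 promoters. The letters GCATGCGC, the core of the site of NRF1, a factor named for respiratory genes, occurred on either strand in 15.5% of the members' promoters and 2.71% of all 32851. CCGGAAG, an ETS core bound by GABP among others, occurred in 22.5% against 8.86%, and AAGATGGC, a YY1 core, in 12.7% against 2.75%. Of the members' promoters, 42.3% held at least 1 of the 3, against 13.3% of all. The members' promoters were also richer in G and C, with a median of 57.3% against 52.7%. No test was made, the windows of a gene can overlap, and a match is not evidence of binding. The 250 bases before the start site are shown for Cox6b2 and its partner Cox6b1 and for Cycs, the electron carrier cytochrome c, because Cox6b2 differed from its partner and Cycs, which carries the NRF1 core, varied widely between libraries. Motif letters are in capitals, in either orientation, and all 3 genes are on the minus strand.
Cox6b2 (chr7:4753095-4753344): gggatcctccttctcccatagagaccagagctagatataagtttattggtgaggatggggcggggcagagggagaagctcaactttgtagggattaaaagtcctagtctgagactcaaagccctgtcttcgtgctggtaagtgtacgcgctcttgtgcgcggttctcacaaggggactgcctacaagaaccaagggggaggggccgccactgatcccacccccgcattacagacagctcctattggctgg
Cox6b1 (chr7:30626115-30626364): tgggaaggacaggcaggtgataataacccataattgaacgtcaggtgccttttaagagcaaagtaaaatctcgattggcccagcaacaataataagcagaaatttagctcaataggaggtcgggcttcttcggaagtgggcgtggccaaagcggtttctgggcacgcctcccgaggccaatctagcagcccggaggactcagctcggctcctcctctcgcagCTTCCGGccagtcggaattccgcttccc
Cycs (chr6:50566570-50566819): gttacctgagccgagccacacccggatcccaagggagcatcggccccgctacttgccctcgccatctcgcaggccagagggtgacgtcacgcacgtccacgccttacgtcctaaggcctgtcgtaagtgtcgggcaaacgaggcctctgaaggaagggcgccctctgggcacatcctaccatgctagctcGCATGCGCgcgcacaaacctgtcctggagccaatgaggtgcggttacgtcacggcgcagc
None of the 3 motifs matched in the Cox6b2 window, the ETS core matched on the reverse strand in that of Cox6b1, and the NRF1 core matched in that of Cycs.

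In WT 1 and SMA+Pifithrin-alpha 3, the members departed from their usual levels by base composition. A departure here is a gene's log2(scaled TPM + 1) in a library minus its mean over the 15 libraries. Its SD over the 81 members was 0.79 in WT 1 and 0.84 in SMA+Pifithrin-alpha 3, against 0.20 to 0.29 in the other 13. Across the 81 members, which share a library and are not replicates, the departure had a Pearson's r with the GC content of the gene's transcripts of -0.73 in WT 1, -0.82 in SMA+Pifithrin-alpha 3, -0.64 in SMA+Pifithrin-alpha 2 and -0.19 in SMA+SMN-C3 1, and of 0.37 to 0.72 in the other 11. Over all genes it was -0.49 in WT 1 and -0.61 in SMA+Pifithrin-alpha 3. A gene's departures balance out over the 15 libraries, so negative correlations in some libraries favour positive ones in the others by construction. The 27 members of lowest GC content (36.72% to 48.88%) had a median departure of 0.50 in WT 1 and 1.24 in SMA+Pifithrin-alpha 3. For the 27 of highest GC content (54.71% to 61.06%) it was -0.53 and -0.30. The start of the coding sequence of Cycs, with 41.01% G and C over its transcripts, and of Atp5d, the delta subunit of the ATP synthase and the member of highest GC content at 61.06%, show the contrast in composition (60 bases each, G and C in capitals).
Cycs (chr6:50565601-50565660, minus strand): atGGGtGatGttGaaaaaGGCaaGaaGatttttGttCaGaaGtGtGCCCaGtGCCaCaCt
Atp5d (chr10:80142466-80142525, plus strand): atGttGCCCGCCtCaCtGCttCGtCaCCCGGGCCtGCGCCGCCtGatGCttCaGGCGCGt
Of these 60 bases, 26 are G or C in Cycs and 41 in Atp5d.

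Single genes showed the same split. Cycs was at 1031, 296 and 300.5 scaled TPM in WT 1 to 3, 226, 204 and 206 in SMA, 247, 213 and 190 with MW150, 204, 626 and 1093 with Pifithrin-alpha and 666, 328 and 390 with SMN-C3. Its highest values fell in the 4 libraries with the largest mt- shares. Uqcrb, a small subunit of complex III, was at 5959, 1983 and 1530 scaled TPM in WT, 1416, 1283 and 1254 in SMA, 1205, 1311 and 1194 with MW150, 984, 2546 and 7159 with Pifithrin-alpha and 3265, 1762 and 1864 with SMN-C3. WT 1 and SMA+Pifithrin-alpha 3 were again the highest. Atp5d went the other way, with 874 scaled TPM in WT 1 against 1863 and 1552 in WT 2 and 3, and 1001 in SMA+Pifithrin-alpha 3 against 1268 and 1245. Transcripts with at least 30 intron bases made up 19.1% (WT 1) and 19.2% (SMA+Pifithrin-alpha 3) of the members' TPM, and 6.62% to 10.5% in the other 13, when set beside the leading coding transcripts. Transcripts were also searched by a rule set after the values had been seen. It asked for at least 10 TPM in both WT 1 and SMA+Pifithrin-alpha 3. It also asked for under 1 TPM in all 11 libraries with an mt- share under 10%. Over all genes 49 transcripts met the rule, and 1 of them was of a member, so its pattern follows from the rule. This was Atp5a1-204, annotated for nonsense-mediated decay, at 249 TPM in WT 1, 479 in SMA+Pifithrin-alpha 3 and 24.2 in SMA+Pifithrin-alpha 2. The part of mt- share, RNA quality or captured cells in these departures was not tested.

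**Figure D3:**
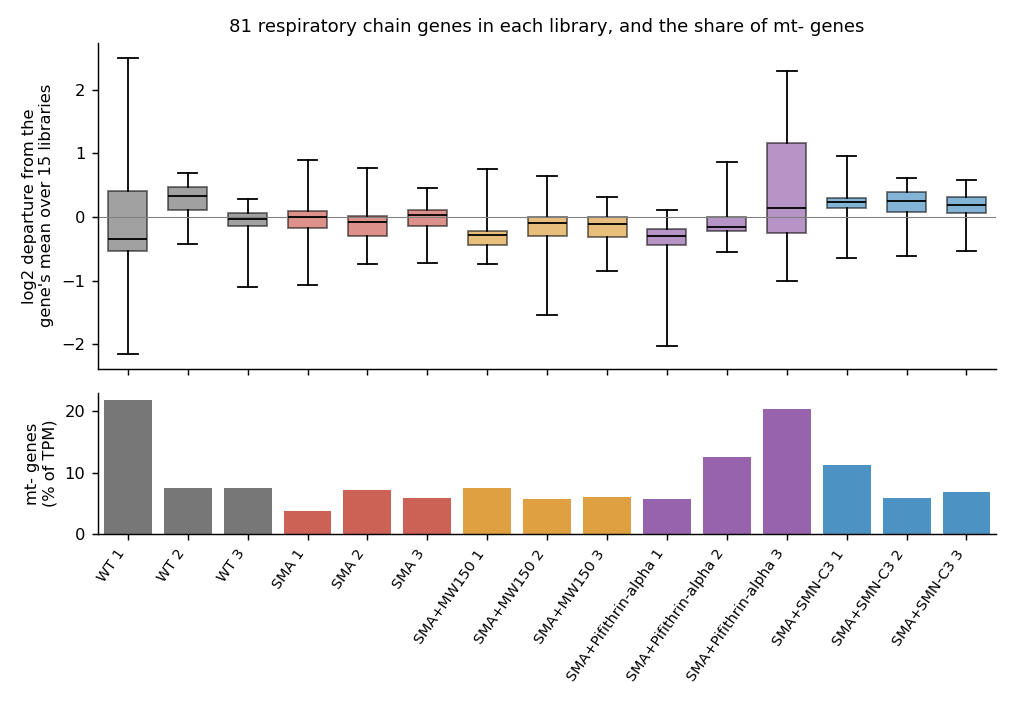
Top, departure of the 81 members from their mean over 15 libraries in each library (box, quartiles; line, median; whiskers, full range); bottom, share of TPM from mt- genes. The boxes of WT 1 and SMA+Pifithrin-alpha 3 are the widest, and these libraries have the highest mt- shares, 21.9% and 20.4%.

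**Figure D4:**
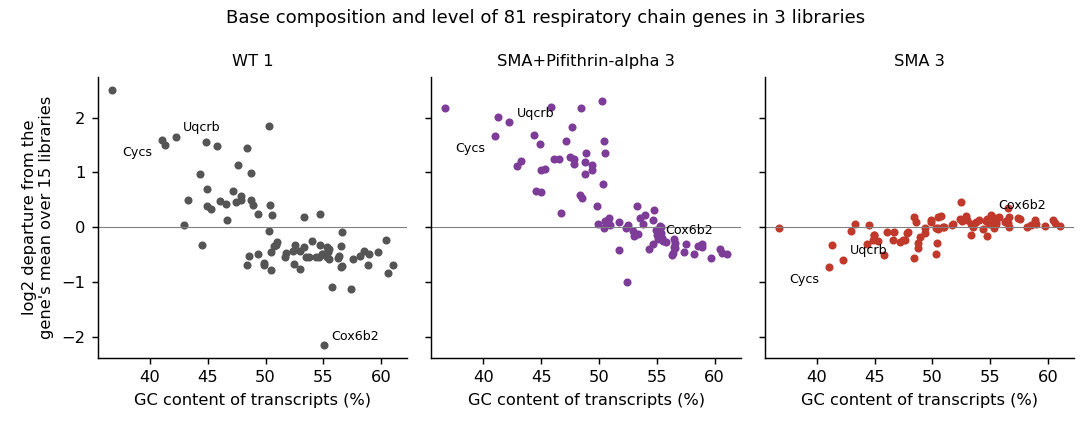
Departure of each of the 81 members against the GC content of its transcripts in WT 1, SMA+Pifithrin-alpha 3 and SMA 3. Most members of low GC content lie above 0 in WT 1 and SMA+Pifithrin-alpha 3, and Cox6b2 lies far below members of like GC content in WT 1.

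Between SMA and WT, the chain as a whole did not move in 1 direction with all libraries included. Of the 81 members, 38 were higher and 43 lower in SMA, and the median change was -0.03, beside 0.03 over all tested genes. Apart from Cox6b2 no member was called, and 2 of 81 (2.47%) had an unadjusted p under 0.05, against 2038 of 15425 over all genes. In 18 members all 3 SMA libraries lay below all 3 WT libraries and in 1, Cox6b2, above. Over all tested genes 8.14% lay below and 8.72% above. The 18 included Cycs (-1.09, limma, adjusted p = 0.377), Ndufc1, an accessory subunit of complex I (-0.88, adjusted p = 0.404), Uqcrb (-0.996, adjusted p = 0.424) and Ndufa4. Ndufa4 was at 9009, 4841 and 3876 scaled TPM in WT and at 3282, 3388 and 3730 in SMA, a change of -0.68 (limma, adjusted p = 0.478), and was close below WT 3 in each SMA library. Subunits with the opposite sign were the NADH-binding Ndufv1 (0.24), Ndufs7 (0.37), Cyc1 (0.35) and Atp5b (0.39), with limma adjusted p-values of 0.475 to 0.665.

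Without WT 1 and SMA+Pifithrin-alpha 3 most members lay lower in SMA than in WT. Of the 81, 72 were then lower in SMA and 9 higher, with a median of -0.21 beside 0.01 over all genes, and still only Cox6b2 was called. In that fit Ndufs7 was at 0.07, Cyc1 at -0.10, Atp5b at 0.10 and Ndufv1 at -0.06, while Cycs was at -0.48, Uqcrb at -0.39 and Ndufa4 at -0.31. A correction for base composition with all 15 libraries gave a median of -0.21 and 68 members lower. Leaving out WT 2 instead gave a median of 0.18; WT 2 had the highest median departure of the members, 0.34. Without scaling the median was 0.23, beside 0.24 over all genes. The microglial markers were higher in SMA in all 7 of 7 genes, with sums of 15 to 42 TPM in WT and 76 to 116 in SMA, and C1qc was called (1.62, limma, adjusted p = 0.0473). The astrocyte markers were higher in 4 of 5 genes, with sums of 192 to 241 TPM in WT and 273 to 528 in SMA. Oligodendrocyte-lineage markers were higher in 5 of 6, with overlapping sums of 614 to 1811 and 666 to 3635. The part of these cells in the members' values was not tested. In laser-captured tissue, fewer cells of a type and less RNA per cell cannot be told apart.

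With MW150 most members lay slightly below SMA, and no member was called. Of the 81, 77 were lower, including all of complexes II, III and IV, and the median change was -0.15, beside -0.01 over all genes. In 15 members the groups did not overlap, all lower, against 5.28% of all tested genes lower and 5.52% higher. By limma none had an unadjusted p under 0.05, and 0.00648% of all genes were called. The 3 members with the smallest p were Cox7a1, the muscle isoform (-0.46), Cox7a2l (-0.29) and Atp5b (-0.32), each with an adjusted p of 1. Atp5b was at 2853, 2319 and 2542 scaled TPM in SMA and at 1870, 2146 and 2164 with MW150, so the groups were apart by a small margin. Much of the shift lay in 1 library: the median departure of the members was -0.29 in SMA+MW150 1 and -0.09 and -0.10 in the others, against -0.08 to 0.03 in SMA. Without scaling the median was -0.07 and 61 members were lower, and under quantile normalization it was -0.03 and 51 were. All 5 astrocyte markers and 5 of 7 microglial markers were lower than in SMA too, with medians of -0.42 and -0.36, none called, and their part in the members' values was not tested. Against WT no member was called with MW150 (0.123% of all genes were), the median was -0.15 and 11 members were higher. Without WT 1 and SMA+Pifithrin-alpha 3 that median was -0.34 with 2 members higher, while without scaling it was 0.18 with 53 higher. Against SMA the median was -0.14 without these libraries, neither of which is in the groups of that comparison.

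With Pifithrin-alpha no member was called, and members of high and low GC content differed. Against SMA the median change was -0.13, beside -0.03 over all genes, with 34 of 81 members higher. In 26 members all 3 treated libraries lay below all 3 SMA libraries and in none above, against 9.81% and 6.83% of all genes. By limma 0.00648% of all genes were called. The 27 members of highest GC content had median departures of -0.25, -0.21 and -0.30 in the 3 treated libraries and of 0.06, -0.01 and 0.08 in SMA. For the 27 of lowest GC content they were -0.47, 0.04 and 1.24, against -0.20, -0.38 and -0.23 in SMA. Cycs (1.29), Sdha (0.66) and Atp5f1, subunit b of the ATP synthase (0.78), had the smallest p, each with a limma adjusted p of 0.437. Sdha was at 195, 134 and 188 scaled TPM in SMA and at 185, 235 and 447 with Pifithrin-alpha. Atp5f1 was at 915, 735 and 864 in SMA and at 788, 1213 and 3105 with Pifithrin-alpha. In both genes SMA+Pifithrin-alpha 3 was highest and SMA+Pifithrin-alpha 1 was within the range of SMA. Without SMA+Pifithrin-alpha 3 and WT 1, the changes of Cycs, Sdha and Atp5f1 were 0.76, 0.30 and 0.23, 62 members were lower, the median was -0.20 and 40 members were apart, all lower, against 13.7% of all genes with only 2 treated libraries left. After the correction for base composition the median was 0.06 and 1 member was apart. Subunits of high GC content were among the 26: Ndufs7 (-0.45), Cox6a1 (-0.40) and Uqcr11 (-0.41). Markers of other cells were lower than in SMA, in 5 of 5 astrocyte genes (median -0.97, 3 apart), 6 of 6 oligodendrocyte-lineage genes (-0.86, 1 apart) and 6 of 7 microglial genes (-1.02, 4 apart), none called. Their part in the members' values was not tested. Against WT no member was called (0.175% of all genes were), the median was -0.09 and 32 members were higher. Without the same 2 libraries that median was -0.38 and 10 members were higher.

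With SMN-C3 nearly the whole chain lay above SMA under median-of-ratios scaling, and no member was called. Of the 81 members 78 were higher, with a median change of 0.27, beside -0.03 over all tested genes, of which 47.3% were higher. The 3 exceptions were Cox7a1, Cox6b2 and Atp5b. In 51 members the 3 SMN-C3 libraries all lay above the 3 SMA libraries and in none below, against 9.37% and 8.82% of all tested genes. All 35 genes of complex I were higher, 24 of them without overlap, with medians of 0.25 for the 8 genes of the NADH-oxidising module, 0.30 for the 8 of the ubiquinone-reducing module and 0.31 for the 19 of the membrane arm. Complex III had 9 of 9 higher and 6 apart, the ATP synthase 16 of 17 and 11, complex IV 13 of 15 and 8, and complex II 4 of 4 and 1. By limma 0.0648% of all genes were called. An unadjusted p under 0.05 was found for 2 of the 81 members (2.47%) and for 1050 of all 15425 genes (6.81%). The standard errors, with a median of 0.25, were about as large as the shifts.

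Ndufb10, an accessory subunit in the membrane arm, had the smallest p. It was at 611, 589 and 702 scaled TPM in SMA and at 946, 1057 and 1019 with SMN-C3, a change of 0.67 (limma, adjusted p = 0.569). The groups were well apart, and WT, at 553, 1149 and 771, spanned both. Cox7a1, by contrast, was at 38.3, 33.5 and 17.9 scaled TPM in SMA and at 12.4, 12.8 and 21.7 with SMN-C3, a change of -0.87 (limma, adjusted p = 0.599), with overlap. Atp5g1 was at 3473, 3197 and 3682 in SMA and 4454, 5298 and 4586 with SMN-C3, a change of 0.47 (adjusted p = 0.759), without overlap. Sdhb was at 746, 678 and 790 in SMA and 985, 1119 and 971 with SMN-C3 (0.47, adjusted p = 0.742), also without overlap. Cycs had a change of 1.05 (adjusted p = 0.74), with its highest SMN-C3 value in the library with an mt- share of 11.3%. Ndufa4 (0.62) and Uqcrb (0.74) were also apart, while Ndufv1 (0.16), Ndufs1 (0.12), Sdha (0.20) and Atp5a1 (0.21) were not.

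The SMN-C3 shift depended on the scaling. Of the 81 members, 46 were higher without scaling, 50 with TPM recomputed on nuclear genes and 44 under quantile normalization. Without scaling the median of the members was 0.03 and that of all genes -0.23, so the distance between them, 0.26, was close to the 0.30 of the main scaling. With TPM recomputed on nuclear genes they were 0.07 and -0.20. Under quantile normalization both were 0.01, so the members did not lie above other genes, and 7 members were apart higher and 7 lower. Without scaling 13 were apart higher and 4 lower, against 2.52% and 18.2% of all genes. After the correction for base composition the median was 0.37 and 80 members were higher. Leaving out WT 1 and SMA+Pifithrin-alpha 3 bears little on this comparison, as neither library is in its groups. The counts then stayed at 78 higher and 51 apart. The shift differed in direction between classes of transcripts. The 81 leading coding transcripts of the members had a median change of 0.28 and their 184 transcripts with at least 30 intron bases one of -0.19. Over all genes the medians were 0.07 for 13161 leading transcripts and -0.18 for 16656 with intron bases. Markers of other cells were lower than in SMA, in 7 of 7 microglial, 5 of 5 astrocyte and 6 of 6 oligodendrocyte-lineage genes. The astrocyte markers summed to 97 to 226 TPM against 273 to 528, the microglial ones to 38 to 56 against 76 to 116, and the motor neuron markers to 2323 to 2885 against 2150 to 2698. None of these genes was called. The part of captured cells and of intron-holding RNA in the shift was not tested. Against WT no member was called with SMN-C3 (0.0324% of all genes were), the median was 0.18 and 57 members were higher. Without WT 1 and SMA+Pifithrin-alpha 3 it was 0.08, again with 57 higher. The 3 treatments were each set against the same SMA libraries, so their changes are not independent of each other.

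**Figure D5:**
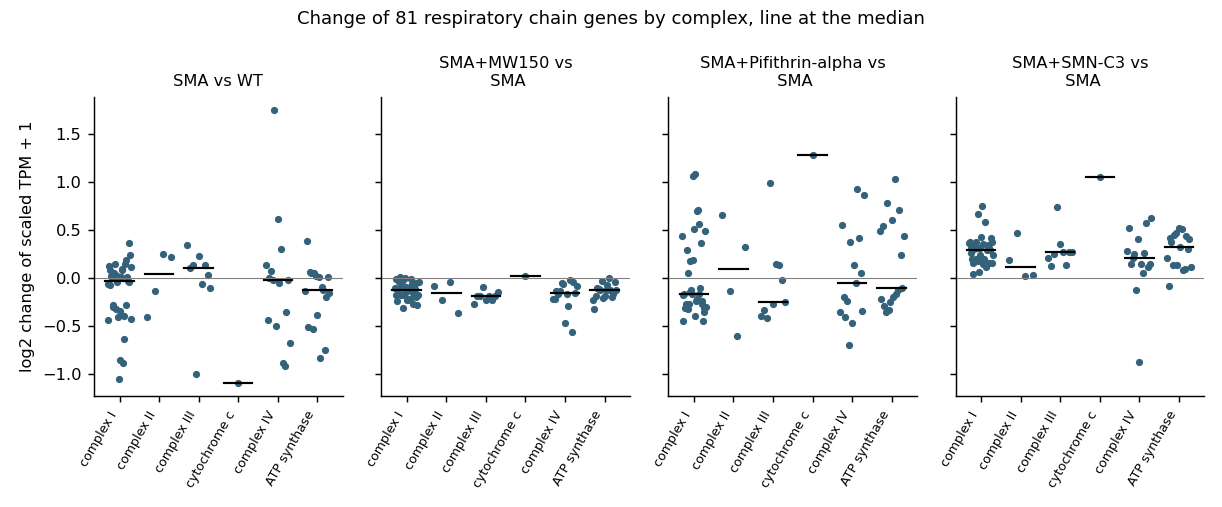
log2 change of each of the 81 members by complex in 4 comparisons, with the median of each complex as a line. Cox6b2 stands at 1.75 in the comparison of SMA with WT, and 78 of 81 members lie above 0 with SMN-C3 against SMA.

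In the other lists of energy metabolism none of the 49 assembly factors, 16 genes of the citric acid cycle and pyruvate dehydrogenase, 16 genes of glycolysis and 11 regulators of mitochondrial biogenesis was called in any of the 7 comparisons by limma. Between SMA and WT their median changes were 0.04, 0.04, 0.19 and 0.23, with 4, 0, 1 and 0 genes at an unadjusted p under 0.05. Without WT 1 and SMA+Pifithrin-alpha 3 these medians were -0.05, -0.18, -0.05 and 0.15. In that fit 27 of 49, 15 of 16, 11 of 16 and 3 of 11 genes were lower in SMA. With SMN-C3 against SMA they were 0.11, 0.18, 0.15 and -0.02, with 31 of 49, 15 of 16, 13 of 16 and 5 of 11 genes higher. With MW150 15 of 16 citric acid cycle genes were lower, with a median of -0.11.

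The 13 mitochondrially encoded subunits were lower in SMA than in WT in every case, with a median of -1.26, and none was called (limma), though 9 had an unadjusted p under 0.05. The cytochrome oxidase gene mt-Co3 was at 89610, 19830 and 16463 scaled TPM in WT 1 to 3 and at 7891, 13311 and 13452 in SMA. In 11 of the 13 genes the groups did not overlap, and WT 1 was far above WT 2 and WT 3. Without WT 1 and SMA+Pifithrin-alpha 3 the median was -0.63, with 10 genes apart and 2 at an unadjusted p under 0.05. With Pifithrin-alpha the 13 genes were higher than in SMA, with a median of 1.15 and no group apart, and mt-Co3 was at 10880, 36381 and 137246. Without the same 2 libraries 12 of 13 were higher, with a median of 0.55. With SMN-C3 12 of 13 were higher, with a median of 0.63 and 4 genes apart. Most mitochondrial messenger RNAs carry short poly(A) tails, through which poly(A) selection can capture them.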

How the data were processed

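The labels' protocols describe low-input poly(A) libraries of laser-captured neurons, sequenced with paired ends of 100 bases. The submitters' processing notes name kallisto 0.44.0, DESeq2 and the builds GRCm38.p6 and mm10 without roles. The authors deposited TPM values in a gene table and a transcript table, and each library sums to 1000000. TPM keeps no counts, so depth is unknown and no count model or interval is given. The 3 replicates limit the precision. Each p-value sets a difference between group means against the spread of these libraries within groups, estimated over all 5 groups.

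TPM was divided by median-of-ratios size factors (0.627 to 1.217) from 13320 genes and taken as log2(value + 1), which understates changes of low genes. A single limma 3.58.1 fit (R 4.3.3) with a mean per group and trended variances covered all 15 libraries and 7 comparisons, two-sided, with Benjamini-Hochberg adjustment over 15425 genes. The fit was tested on simulated data. Members, gene lists, motifs and the rule for named genes (called members, 4 markers, the 3 smallest p per comparison, extremes of level, isoform pairs and catalytic subunits) were chosen with earlier results of these data known. GENCODE M21, matched by 98.5% of transcript identifiers, gave coordinates, GC content and transcripts. Exons of other genes overlap 5 members on the same strand and 23 on the other. Python 3.11.15, pandas 2.3.3 and matplotlib 3.10.9 were used. The transcript fit, intron classes and correction for base composition were chosen after seeing the data. Alternatives were other scalings, filters, pseudocounts, fits and left-out libraries. Groups of 3 are too small for a test of outlying samples. Some values of the set are not reported here.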

Additional observations from a re-analysis of the deposited data

How the results depend on the processing

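Cox6b2 kept its direction between SMA and WT in all 12 alternative fits (1.3 to 2) and was called in 9. The number of members called between SMA and WT was 0 with no filter beyond a TPM above 0 in 3 libraries (adjusted p = 0.0686 for Cox6b2), with the 2 groups alone (0.363) and with the mt- share as a term (0.0823), and it was 0 to 1 when 1 library was left out. With MW150 against WT it was 1 for TPM of nuclear genes only, for a filter at a mean of 5 TPM and with array weights, and with SMN-C3 against WT it was 1 with array weights; leaving out 1 library gave 0 to 1 in both. The replicate numbers did not pair the libraries (correlations of same-numbered libraries of -0.319 to 0.268); with a replicate block Cox6b2 changed by 1.75 (adjusted p = 0.044) and the called count stayed at 1.

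Without scaling, the medians were 0.23 for SMA against WT, -0.391 for Pifithrin-alpha and 0.027 for SMN-C3 against SMA, and 0.18 for MW150 against WT, and 6 members were apart with MW150 and 17 with SMN-C3 against SMA. On nuclear genes only, 4 were apart with MW150 and 16 with SMN-C3, whose median was 0.065, and MW150 against WT had 0.082. Under quantile normalization 6 and 14 were apart, the SMN-C3 median was 0.014 and that of MW150 against WT 0.092. Pifithrin-alpha against WT had -0.28 with array weights and -0.38 without the 2 libraries of highest mt- share, where 40 members were apart from SMA; with the correction for base composition, added after seeing the data, its median against SMA was 0.057 and 1 member was apart. The cause was not tested.

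Leaving out 1 library in turn, medians ranged from -0.21 to 0.18 for SMA against WT, -0.345 to 0.032, -0.304 to 0.038 and 0.073 to 0.381 for MW150, Pifithrin-alpha and SMN-C3 against WT, -0.183 to -0.074 for MW150 against SMA, where the smallest was without SMA+MW150 1, and -0.2 to -0.078 for Pifithrin-alpha against SMA, where the smallest was without SMA 3 and the largest without SMA+Pifithrin-alpha 3. Members apart ranged from 20 to 32 for SMA against WT, 16 to 42 for MW150 and 26 to 52 for Pifithrin-alpha against SMA; with fewer libraries, groups part more easily by construction. The call of Cox6b2-203 between SMA and WT was kept in 6 of 7 alternative fits; its calls with MW150, Pifithrin-alpha and SMN-C3 against WT were lost with a pseudocount of 0.1 (adjusted p = 0.0794, 0.138 and 0.0842) and with the 2 groups alone (0.213, 0.9 and 0.373), and that with Pifithrin-alpha also with no filter beyond a TPM above 0 in 3 libraries (0.0609) and with a replicate block (0.062).

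Depth is unknown, so members at a few TPM, such as Cox7b2, are the least certain.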

Other observations

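Genes of the chain whose symbols lie outside the naming pattern are given here as values. Usmg5, a small subunit of the ATP synthase, was at 10836, 5379 and 4012 scaled TPM in WT 1 to 3, 3899, 3787 and 3923 in SMA and 16154 in SMA+Pifithrin-alpha 3. Ndufab1, the acyl carrier subunit of complex I, was at 4053, 1788 and 1388 in WT, 1339, 1257 and 1416 in SMA and 7642 in SMA+Pifithrin-alpha 3. Both were thus highest in the 2 libraries with the highest mt- share, as Uqcrb was. Ndufb4c was not, with 293, 541 and 407 in WT 1 to 3, 383, 413 and 436 in SMA and 393 in SMA+Pifithrin-alpha 3. Ndufa4l2, a relative of Ndufa4 known to rise at low oxygen, was at 0 to 3.78 scaled TPM in all 15 libraries.

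Cox6b2-207, a transcript annotated for nonsense-mediated decay that splices the first intron, was at 11.2, 13.8 and 8.12 scaled TPM with MW150, against 3.70, 6.99 and 4.30 in SMA and 0, 1 and 1.59 in WT. The 3 MW150 libraries were the highest of the 15. The transcript was named after its values had been seen, and its change between MW150 and SMA was not called.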
